A study of Neurospora crassa with 2 samples.

Results

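Genes of mating and sexual development were compared between mycelia of the wild type and of Δ*gul-1* in *Neurospora crassa*, a filamentous ascomycete whose wild type grows as haploid hyphae of a single mating type. The group holds 6 of the 9730 genes in the deposited table, chosen by locus: the mating-type gene *matA-1*, the pheromone precursor gene *ccg-4*, the pheromone receptor genes *pre-1* and *pre-2*, the transcription factor gene *pp-1* and the abundant perithecial protein gene *app*. They were picked with the difference between these 2 libraries already known, so every difference given for them is a description and not a test. RNA was taken from conidia-inoculated cultures after 3 days at 25 °C in constant light, in Vogel's salts with 2% Avicel (a crystalline cellulose), 0.75% yeast extract and 0.2% Tween 80. The WT group carried an intact *gul-1*, and the delta-gul-1 group lacked this gene, which encodes an mRNA-binding protein of the COT-1 kinase pathway. Each group was 1 library from 1 strain, so nothing here measures the variation between cultures, and no p-value is given. The study's strain list gives mating type A for the wild type and for the stock deletion strain, and it also describes a Δ*gul-1* derivative of mating type a. The sources used here do not say which Δ*gul-1* isolate gave the RNA. Its library held 3332 reads of *matA-1*, a gene of the A form of the mating-type locus, so it held RNA of a mating type A strain.

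*N. crassa* is self-sterile: a cross needs strains of mating type A and of mating type a, and each mating-type locus encodes regulators that set the pheromone and the receptor a strain makes. A strain of mating type A makes the peptide pheromone encoded by *ccg-4* and senses the lipopeptide pheromone of the other mating type, encoded by *mfa-1*, through the receptor PRE-1. A strain of mating type a makes the lipopeptide and senses the CCG-4 peptide through PRE-2. Pheromone draws the receptive hypha of a protoperithecium, the female organ, to a male cell of the other mating type, and the fertilised organ grows into a perithecium that holds the ascospores. Signals from the receptors pass through a G protein, and a MAP kinase cascade that ends at PP-1 is needed for protoperithecia and also for fusion between vegetative hyphae.

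The deleted gene was read first. *gul-1* (NCU01197) was read 21537 times in WT and 304 times in Δ*gul-1*, of 20461987 and 20341292 reads assigned to genes. Levels are in RPKM, which scales reads to exon length and to the library total, so that genes can be compared per length. A gene was counted as higher or lower in Δ*gul-1* at a ratio of at least 2 or at most 0.5, if its RPKM was above 20 in at least 1 library. Intervals are exact 95% intervals from the reads and cover counting error only. Among the 4409 genes past this floor the median log2 ratio was 0.11, and scaling by trimmed means (TMM) lowered every log2 ratio by 0.15. In a culture, fewer cells of a kind and less RNA in each cell cannot be told apart.

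Of the 6 genes, 5 passed the floor. The higher genes in Δ*gul-1* were 3 (*matA-1*, *ccg-4* and *pre-1*), the lower gene was 1 (*app*), and *pp-1* differed by less than 2-fold. Across all genes past the floor, 3.88% were higher and 2.63% were lower (6.51% in either direction), and with TMM scaling 3.11% and 3.42%. With no floor, over the 8985 genes with reads in both libraries, 8.18% were higher and 2.77% were lower. The choice of the genes used this comparison, so the counts are set beside those shares without being read against them. The receptor gene *pre-2* lay far below the floor in both libraries. The floor was passed by *pre-1* through the Δ*gul-1* library alone and by *app* through the WT library alone.

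**Figure D1:**
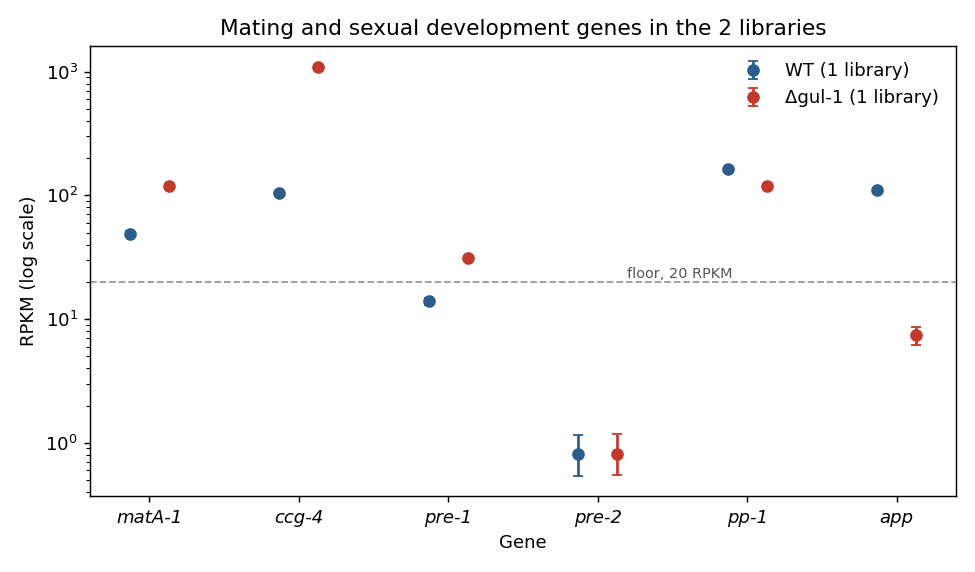
RPKM on a log axis of the 6 genes in the WT library (blue) and the Δ*gul-1* library (red), with exact 95% counting intervals as bars, which are smaller than the points for most genes; the dashed line is the floor of 20 RPKM. *ccg-4* stands at 104.8 and 1090 RPKM and *app* at 110.2 and 7.38 RPKM, whereas *pre-2* stands at 0.808 and 0.813 RPKM.

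The mating-type gene was expressed at a higher level in Δ*gul-1*. *matA-1* (NCU01958, chromosome I of the NC12 assembly, 1860692 to 1862194), which encodes the regulator that gives strains of mating type A their mating identity, gave 1388 reads in WT (49.01 RPKM) and 3332 in Δ*gul-1* (118.4 RPKM). This is 2.41-fold higher, with an interval of 2.27 to 2.57. The A form of the locus holds a further pair of genes, *matA-2* (1859093 to 1860424) and *matA-3* (1857194 to 1858469), which act after fertilisation. Both lay below the floor. *matA-2* had 14 reads in WT and 45 in Δ*gul-1* (0.618 and 2.00 RPKM), and *matA-3* had 66 and 195 (2.90 and 8.61 RPKM). Their ratios were 3.23 (interval 1.74 to 6.38) and 2.97 (interval 2.24 to 3.99), and both intervals overlap that of *matA-1*. The 3 genes of the locus thus stood higher in Δ*gul-1* by factors that counting error does not separate. Reads on all 3 genes in both libraries show that both held RNA of the A locus, the form carried by strains of mating type A. Within a library the regulator was far above its neighbours: the RPKM of *matA-1* was 16.9 times that of *matA-3* in the WT (interval 13.2 to 22.0) and 13.7 times in Δ*gul-1* (interval 11.9 to 15.96).

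The pheromone precursor gene of mating type A showed the largest difference of the 3 higher genes. *ccg-4* (NCU02500, chromosome I, 2531832 to 2533997), named as a clock-controlled gene and the source of the peptide pheromone, had 4496 reads in WT and 46513 in Δ*gul-1*. In RPKM this was 104.8 against 1090, or 10.4-fold higher (interval 10.1 to 10.7). Only 9 of the 4409 genes past the floor, *ccg-4* among them, had a ratio this large. By RPKM *ccg-4* ranked 777 of all 9730 genes in WT and 37 in Δ*gul-1*, and its share of the assigned reads was 0.0220% in the WT and 0.229% in Δ*gul-1*.

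The pheromone precursor gene of the other mating type did not follow it. *mfa-1* (NCU16992, chromosome V, 3396270 to 3397430), which encodes the lipopeptide pheromone, gave 881 reads in WT (37.1 RPKM) and 804 in Δ*gul-1* (34.0 RPKM). The ratio of 0.918 has an interval of 0.833 to 1.01, which takes in 1. Per length, *ccg-4* stood at 2.83 times the level of *mfa-1* in the WT (interval 2.63 to 3.04) and at 32.0 times in Δ*gul-1* (interval 29.9 to 34.4). The distance between the pheromone genes was therefore wider in the Δ*gul-1* library, through *ccg-4*.

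Of the receptor genes, the one used by mating type A was higher in Δ*gul-1*. *pre-1* (NCU00138, chromosome III, 2752660 to 2756067), whose product is the receptor for the MFA-1 lipopeptide, gave 914 reads in WT (13.96 RPKM) and 2012 in Δ*gul-1* (30.9 RPKM), 2.21-fold higher (interval 2.05 to 2.40). This value lies just inside the 2-fold limit, and with TMM scaling it came to 1.996 and was no longer counted. *pre-2* (NCU05758, chromosome VII, 3727404 to 3729156), the receptor for the CCG-4 peptide in mating type a, had 29 reads in each library (0.808 and 0.813 RPKM). Its ratio of 1.01 has an interval of 0.580 to 1.74, so a difference inside that interval was not detectable at this depth. *pre-1* stood at 17.3 times the level of *pre-2* in the WT (interval 11.9 to 25.9) and at 38.0 times in Δ*gul-1* (interval 26.4 to 56.9).

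The transcription factor gene *pp-1* (NCU00340, chromosome III, 3507722 to 3512003) gave 13485 reads in WT (163.2 RPKM) and 9737 in Δ*gul-1* (118.6 RPKM). Its product resembles the yeast regulator Ste12, which switches on mating genes in *Saccharomyces cerevisiae*. The ratio of 0.726 (interval 0.708 to 0.746) lies within 2-fold, on the side opposite to *matA-1*, *ccg-4* and *pre-1*, and it was 0.655 with TMM scaling.

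The signalling genes placed before PP-1 were read from a list made by gene symbol. The list of pheromone response and MAP kinase genes had 16 members besides *pp-1*, all past the floor. Their log2 ratios ran from -0.35 to 0.37, with a median of -0.01, against 0.11 over all genes past the floor. None of the 16 was past 2-fold, beside 6.51% of all genes, and the count does not set the list apart. The list takes in the cell wall integrity kinases (*mik-1*, *mek-1* and *mak-1*) and the small GTPase gene *rac-1* as well. It is not complete: the symbols *ste-50*, *cdc-42*, *cdc-24*, *ras-2* and *whi-2* were sought and matched no gene. The locus expected for *ste-50*, NCU00455, stands under the symbol *ty-1*, with 45.5 RPKM in the WT and 46.1 in Δ*gul-1*. *nrc-1* (NCU06182), the first kinase of the cascade to PP-1, had 32.9 RPKM in the WT and 42.7 in Δ*gul-1*. *mek-2* (NCU04612), the middle kinase, had 113.0 and 140.0 RPKM, and *mak-2* (NCU02393), the last, had 191.0 and 216.2 RPKM. The 3 kinase genes of the cascade had ratios between 1.13 and 1.30 (*mek-2* and *mak-2* are named after their values were seen). The G protein β subunit gene *gnb-1* (NCU00440) had 114.4 and 89.7 RPKM, a ratio of 0.784, and *mik-1* (NCU02234) had 46.6 and 58.3 RPKM, a log2 ratio of 0.32.

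**Figure D2:**
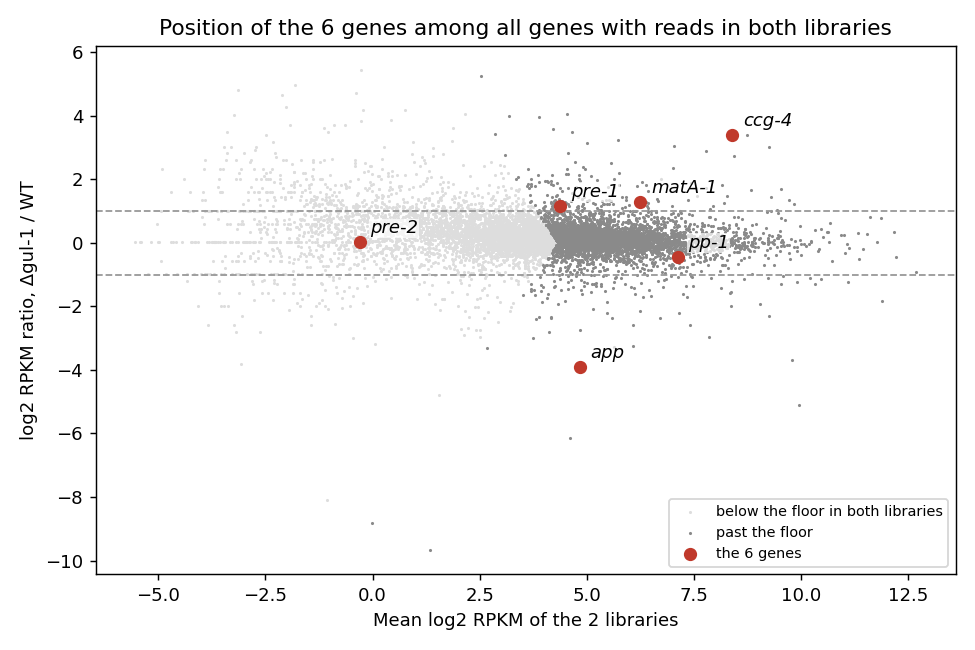
The log2 ratio of RPKM (Δ*gul-1* over WT) against the mean log2 RPKM of the 2 libraries for the 8985 genes with reads in both, with genes past the floor in dark grey, the others in light grey and the 6 genes in red; dashed lines mark 2-fold. *ccg-4* (log2 ratio 3.38) and *app* (-3.90) stand at the edges of the cloud, *matA-1* (1.27) and *pre-1* (1.15) lie just above the upper line, and *pre-2* (0.01) and *pp-1* (-0.46) lie between the lines.

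The perithecial gene went the other way. *app* (NCU04533, chromosome VII, 1539827 to 1540778), which encodes a protein named for its abundance in perithecia, gave 2147 reads in WT (110.2 RPKM) and 143 in Δ*gul-1* (7.38 RPKM), 14.9-fold lower (interval 12.6 to 17.8). Only 5 of the 4409 genes past the floor, *app* and the deleted *gul-1* among them, had a ratio this small. Its rank by RPKM was 734 in WT and 6521 in Δ*gul-1*. In RefSeq the gene overlaps NCU04532 by 157 bases, and the sources used here do not say whether the counting used strand. NCU04532 had 100 reads in WT and 137 in Δ*gul-1*. Within the WT library *ccg-4* and *app* stood at about the same level, at a ratio of 0.951 (interval 0.903 to 1.00), whereas in Δ*gul-1* *ccg-4* stood at 148 times the level of *app* (interval 125 to 175).

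The other markers of sexual tissue were read beside *app*. The marker list had 7 genes (*app*, *mfa-1*, *per-1*, *asd-1*, *asd-3*, *poi-2* and *fmf-1*), none at 0 reads in either library, with a summed level of 163.8 RPKM in the WT and 70.1 in Δ*gul-1*, or 53.6 and 62.7 without *app*. Only *app* and *mfa-1* passed the floor. *per-1* (NCU03584, chromosome V, 1714456 to 1721951), a polyketide synthase gene of the dark perithecial pigment, had 30 reads in WT and 533 in Δ*gul-1* (0.202 and 3.60 RPKM). This is 17.9-fold higher (interval 12.4 to 26.8), at a level that stayed below the floor. *asd-3* (NCU05597), a gene of ascus development, had 274 and 571 reads, 2.10-fold higher (interval 1.81 to 2.43). The neighbouring ascus gene *asd-1* (NCU05598) had 192 and 183 reads, *fmf-1* (NCU09387), needed for female and male fertility, had 153 and 204, and *poi-2* (NCU05768) had 17 and 15. The sexual tissue genes were thus mostly at low levels in both libraries, and *per-1* and *app* stood on opposite sides.

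Markers of conidia also differed between the libraries, and their part in these results was not tested. Of the 9 markers (*eas*, *fl*, *acon-3*, *csp-1*, *csp-2*, *con-6*, *con-8*, *con-10* and *con-13*), none was at 0 reads in either library, 7 passed the floor, 2 were lower in Δ*gul-1* (*eas* and *fl*) and 1 was higher (*con-6*). Over all genes past the floor, 3.88% were higher and 2.63% were lower. *con-6* passed the floor through the Δ*gul-1* library alone (10.3 RPKM in the WT and 21.3 in Δ*gul-1*). Its ratio of 2.06 has an interval of 1.70 to 2.50, which takes in 2-fold. With TMM scaling its log2 ratio was 0.89, within 2-fold. The summed level of the 9 markers was 6840 RPKM in the WT and 1059 in Δ*gul-1*, most of it from *eas*, the gene of the rodlet protein of conidia, at 5793 and 169.0 RPKM. *con-10* had 159.1 and 229.4 RPKM and *con-8* had 705.6 and 511.1.

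The order of the 6 genes by level differed between the libraries. In the WT, *pp-1* was the most expressed, followed by *app* and *ccg-4*, whose counting intervals overlap (105.6 to 115.0 and 101.7 to 107.9 RPKM), then *matA-1*, *pre-1* and *pre-2*. In Δ*gul-1*, *ccg-4* came first, followed by *pp-1* and *matA-1*, whose intervals overlap (116.2 to 121.0 and 114.4 to 122.4 RPKM), then *pre-1*, *app* and *pre-2*. All other neighbours in both orders were separated by more than counting error.

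The enzymes that would mature the pheromones were read from a list of 17 genes, *mfa-1* itself among them, of which 13 passed the floor. None of the 13 was past 2-fold, beside 6.51% over all genes past the floor, and nothing particular to the list is read from this count. The median log2 ratio of the 13 was 0.00. In *S. cerevisiae* a peptide precursor is cut by the Kex2 and Kex1 proteases and trimmed by a dipeptidyl aminopeptidase. The gene annotated as Kex2 (NCU03219) had 31.6 RPKM in the WT and 34.1 in Δ*gul-1*, that annotated as Kex1 (NCU04316) had 50.6 and 58.5, and the dipeptidyl aminopeptidase gene NCU02515 had 33.3 and 51.0. The ratios of these genes were 1.08, 1.16 and 1.53, against 10.4 for the precursor gene *ccg-4* (the Kex genes, like Ste24, are named after their values were seen). A lipopeptide precursor is prenylated, clipped and methylated. The methyltransferase gene annotated as Ste14 (NCU00034) had 20.8 and 36.4 RPKM, the largest log2 ratio of the list at 0.81. The prenyltransferase α subunit gene NCU03632 had 46.4 and 69.9 RPKM, and the CaaX protease gene annotated as Ste24 (NCU03637) had 195.6 and 176.1. The words used for the list also took in genes of other prenyl pathways, among them NCU09312, a cistransferase gene at 42.6 and 27.6 RPKM.

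The wider list of sexual development genes was read next. Besides 5 of the 6 genes, the list held 44 genes, of which 27 passed the floor. Of the 27, 0 were higher, 1 was lower and 26 differed by less than 2-fold, beside 6.51% past 2-fold over all genes past the floor. Their median log2 ratio was 0.01. With no floor, 6 of the 44 were higher and 3 were lower, all but *ham-6* at low levels. Over the 8985 genes with reads in both libraries, 8.18% were higher and 2.77% were lower. Among the genes so counted, *sad-2* had 1 read in WT and 5 in Δ*gul-1* and *fbm-1* had 7 and 3. The intervals of both ratios (0.563 to 238 and 0.0719 to 1.89) take in 1. Those of the other genes so counted do not. Among these, *Prm1* (NCU09337), annotated as a pheromone-regulated membrane protein 1-like gene, had 452 reads in WT and 186 in Δ*gul-1*. Its ratio was 0.414 (interval 0.347 to 0.492). *sad-3* (NCU09211) had 22 and 52 reads, a ratio of 2.38 (interval 1.42 to 4.11). Both genes are named after their values were seen. The lower gene past the floor was *ham-6* (NCU02767), needed for hyphal fusion, with 102.4 RPKM in the WT and 50.5 in Δ*gul-1*, 2.03-fold lower with an interval of 1.94 to 2.13 that takes in 2-fold. *nox-1* (NCU02110), a NADPH oxidase gene needed for female fertility, had 42.1 and 21.3 RPKM, a ratio of 0.507 that passed 2-fold lower with TMM scaling (the gene is named here after its value was seen). *fsd-1* (NCU09915), a regulator of female development, had 15.9 and 22.8 RPKM, *adv-1* (NCU07392) had 95.3 and 88.7, *sub-1* (NCU01154) had 46.9 and 54.1 and *Asm-1* (NCU01414) had 170.6 and 142.9; these 4 were also chosen after their values were seen.

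Meiosis genes were mostly at low levels. Only 5 of the 11 such genes were past the floor, and none of the 5 was past 2-fold, beside 6.51% over all genes past the floor. Their log2 ratios ran from -0.44 to 0.52. These 5 carry annotations as proteins up-regulated in meiosis, such as NCU08064 (16.7 and 23.9 RPKM) and NCU01510 (48.3 and 35.7 RPKM).

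**Figure D3:**
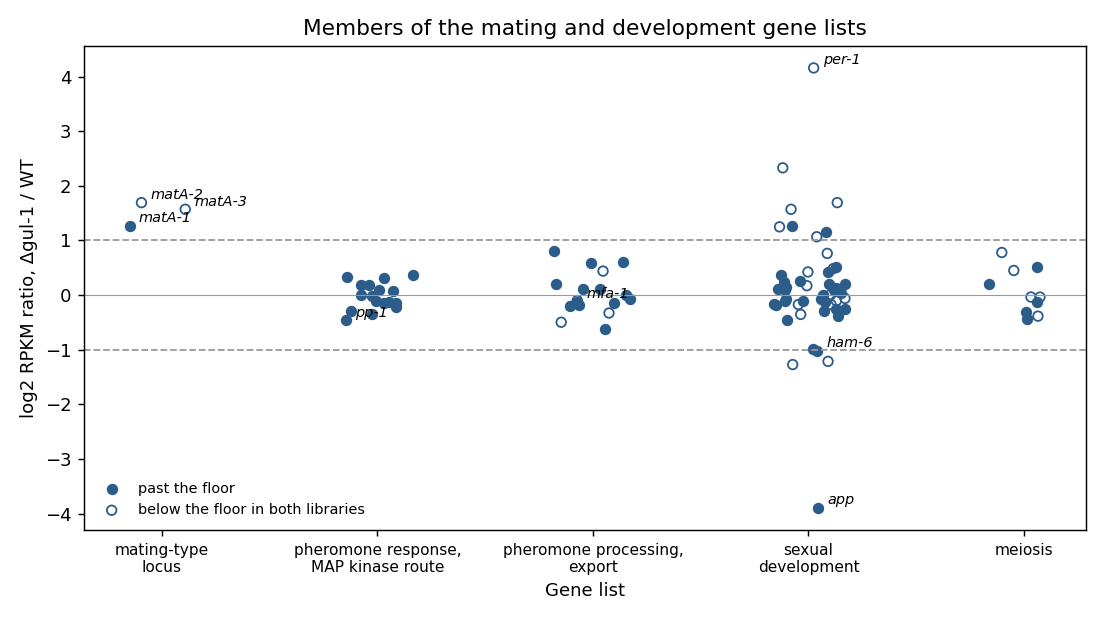
The log2 ratio of RPKM (Δ*gul-1* over WT) of each gene with reads in both libraries in the 5 gene lists, spread sideways only for legibility; filled points passed the floor of 20 RPKM in at least 1 library and open points did not, and dashed lines mark 2-fold. All genes of the MAP kinase, processing and meiosis lists lie between the lines, and *per-1* (4.16, below the floor) and *app* (-3.90) stand apart in the sexual development list.

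The genes beside the 6 on the chromosomes were read as well. Of the 24 nearest annotated genes, 2 on each side, 21 were in the table and 9 passed the floor, and none of the 9 was past 2-fold, beside 6.51% of all genes past the floor. Of the 18 with reads in both libraries, 3 were more than 2-fold higher and 0 more than 2-fold lower, against 8.18% and 2.77% of all such genes. The 3 lay below the floor and were *matA-2*, *matA-3* and NCU02501. The neighbours named next, apart from the overlapping NCU04532 and the mating-type genes, were chosen after their values were seen. The genes beside *app*, NCU04534 (40.4 RPKM in the WT and 44.2 in Δ*gul-1*) and NCU04532 (2.58 and 3.55 RPKM), did not share its lower level. Beyond *matA-1* on the other side from *matA-2*, the second gene, NCU01957, had 94.2 and 113.5 RPKM. NCU02501, next to *ccg-4*, had 3 reads in WT and 17 in Δ*gul-1*, a ratio of 5.70 (interval 1.65 to 30.4) in the same direction as *ccg-4*, at a level below the floor. Both genes that follow *pre-1*, NCU00142 (27.7 and 15.01 RPKM) and NCU00144 (20.8 and 12.3 RPKM), had log2 ratios below 0, opposite to *pre-1*. They lie 14537 and 19534 bases from it. On its other side, NCU00137, 139 bases away, had a ratio of 0.836. NCU00136, 1636 bases away and below the floor, had a ratio of 1.42 (interval 1.19 to 1.69), in the same direction as *pre-1*.

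**Figure D4:**
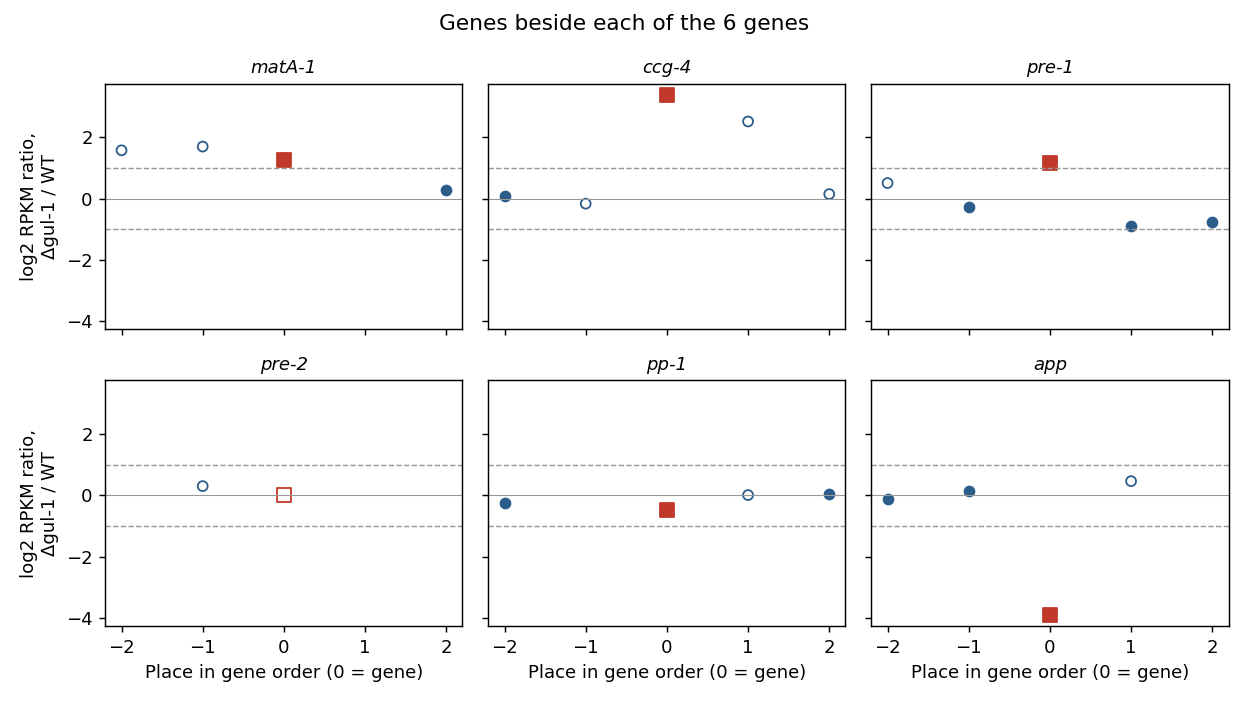
The log2 ratio of RPKM (Δ*gul-1* over WT) of each of the 6 genes (red squares) and of the 2 annotated genes on each side in chromosome order (blue circles); filled symbols passed the floor, open symbols did not, genes without reads in both libraries are not drawn, and dashed lines mark 2-fold. *matA-2* and *matA-3* (1.69 and 1.57) stand above the upper line beside *matA-1*, and the filled circles all lie between the lines.

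Genes with levels most like those of the 4 genes past 2-fold were found by distance in log2 RPKM over the 2 libraries. For *matA-1* the nearest was NCU06380, annotated as a zinc transporter (50.3 RPKM in the WT and 126.2 in Δ*gul-1*, distance 0.10), and for *pre-1* it was NCU03295, a 4-coumarate-CoA ligase gene (14.3 and 30.03 RPKM, distance 0.06). For *ccg-4* the nearest were the hypothetical protein genes NCU08491 (135.4 and 899.3 RPKM, distance 0.46) and NCU01483 (131.0 and 1381 RPKM, distance 0.47). For *app* they were the hypothetical protein genes NCU01720 (74.1 and 11.1 RPKM, distance 0.82) and NCU05755 (156.2 and 15.98 RPKM, distance 1.22). The wider distances of *ccg-4* and *app* show how few genes had levels like theirs. With 2 libraries the likeness is only that of a pair of levels.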

How the data were processed

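The data were RNA-seq libraries of mycelia, 1 of the wild type and 1 of Δ*gul-1*. The deposited read counts are raw: the authors mapped Illumina reads with TopHat2 2.0.8b to predicted transcripts of the genome and counted reads unique to a gene with HTSeq 0.5.4p2. The deposited RPKM were computed by the authors from these counts, exon lengths and library totals, and were equal to values recomputed from the counts to within 9.1e-13. A further column with the authors' own comparison of the libraries (a NOISeq probability) was left aside.

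Ratios were taken from the deposited RPKM with no pseudocount. With 1 library per strain no test was made. Intervals are conditional binomial (Clopper-Pearson) for ratios and exact Poisson for levels. Only those for ratios were tested on simulated counts. Depth was 20461987 assigned reads in WT and 20341292 in Δ*gul-1*, and genes with few reads have wide intervals. Names and positions came from RefSeq (NC12), which matched 9729 loci. Lists were made from RefSeq symbols and annotation words. The genes and lists were chosen with earlier results of these data known. Named genes were *gul-1*, the 6 genes, the mating-type locus, up to 4 genes a list with the largest log2 ratios past the floor, chromosomal neighbours that overlap a gene or passed the floor and 2-fold, and the 2 genes nearest in level to each gene past 2-fold; marker lists were fixed by symbol, and genes outside this rule were named after their values were seen.

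Alternatives were TMM and median-of-ratios scaling, totals without the 50 most abundant genes, a pseudocount of 1 RPKM, floors of 5 and 50 RPKM or none, thresholds of 1.5-fold and 3-fold, and counting intervals wholly beyond 2-fold. Python 3.11.15, pandas 2.3.3, scipy 1.17.1 and edgeR 4.0.16 (TMM factors only) were used.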

Additional observations from a re-analysis of the deposited data

How the results depend on the processing

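All 6 genes kept the direction of their difference from WT, except *pre-2*, which stood at 1.01 and fell on either side of 1. TMM and median-of-ratios scaling agreed within rounding: *matA-1* came to 2.18, *pre-1* to 1.996, just under 2-fold, *ccg-4* to 9.38 and *pp-1* to 0.655, and higher genes of the sexual development list went from 2 to 1. Without the 50 most abundant genes in the totals, *ccg-4* was 10.02-fold higher and *pp-1* had a ratio of 0.6995. A pseudocount of 1 RPKM moved none of the 6 ratios beyond its interval. Scaling also changed the background, from 171 higher and 116 lower genes (59.6% of the called genes higher) to 137 and 151 (47.6%). The counts of all higher genes were 317 and 87 at floors of 5 and 50 RPKM, 735 with no floor, and 476 and 72 at 1.5-fold and 3-fold; the counts of lower genes were 75 at the floor of 50, 249 with no floor, and 254 and 43 at those thresholds. At 3-fold, 1 of the 6 genes (*ccg-4*) was higher, none of the mating-type locus was (0 of 3), and the sexual development list had 0 higher and 1 lower. The mating-type locus had 2 higher genes at a floor of 5 and 3 with no floor. The sexual development list had 4 higher genes at a floor of 5, 1 at a floor of 50, and 8 higher and 4 lower with no floor, and 1 lower gene when the counting interval had to lie wholly beyond 2-fold. The pheromone processing list had 3 higher and 1 lower at 1.5-fold. Of all genes tested at these settings, 4.44% were higher at a floor of 5 and 4.38% at a floor of 50. With no floor the shares were 8.18% higher and 2.77% lower, at 1.5-fold 10.8% and 5.76%, and at 3-fold 1.63% and 0.975%. With the counting interval wholly beyond 2-fold, 2.38% were lower. No paired analysis was possible because each strain had 1 library. For the same reason no library could be left out. The depth limits only the low genes, among them *sad-2*, *fbm-1*, *pre-2*, *matA-2* and *poi-2*.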
